A study of Mus musculus with 18 samples.

Results

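A set of 9 genes of hepatic amino acid breakdown was followed across diets: Sds, Sdsl, Tat, Hpd, Tdo2, Hal, Got1, Gpt and Gls2. They were selected by gene symbol as enzymes of amino acid catabolism, with earlier results of these data known. All 9 were among the 24539 genes listed in every library. The study sequenced liver RNA of wild-type male C57BL/6 mice aged 16 weeks, which had been on their diet for 8 weeks. The diets were a high-fat diet with lycopene (HFD+LYC), a high-fat diet alone (HFD) and normal chow (control). Lycopene is a carotenoid of tomatoes. There were 3 livers per diet. Each liver gave a library of poly(A) RNA (mRNA) and a library of poly(A) RNA pelleted with ribosome-nascent chain complexes (RNC), the RNA bound by ribosomes. Livers are whole tissue, so a change in a gene's RNA per cell and a change in the share of cells that express it cannot be told apart.

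The liver is the main site where surplus amino acids are broken down. Their nitrogen passes to transaminases and the urea cycle, and their carbon passes to glucose, ketone bodies or complete oxidation. Several of the enzymes are textbook examples of control by feeding: glucagon, glucocorticoids and a high protein intake raise Sds and Tat in rat liver, and Tat and Tdo2 are classical glucocorticoid-inducible genes of the rat. Sds (serine dehydratase) and Sdsl (serine dehydratase-like) deaminate serine and threonine. Tat (tyrosine aminotransferase) and Hpd (4-hydroxyphenylpyruvate dioxygenase) catalyse consecutive steps of tyrosine breakdown. Tdo2 (tryptophan 2,3-dioxygenase) opens the tryptophan ring and starts the kynurenine pathway, and Hal (histidine ammonia-lyase) starts histidine breakdown. Got1 is the cytosolic aspartate aminotransferase, Gpt the cytosolic alanine aminotransferase and Gls2 the liver-type glutaminase.

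Sds and Sdsl are neighbours. Sds lies on the plus strand at chr5:120476547-120483932 and Sdsl on the minus strand at chr5:120458193-120472825 (GRCm38/mm10), with 3721 bases between them. Because they are related enzymes, it was checked whether their reads could be confused. The most similar stretches of 90 bases in their coding sequences, found without gaps in the GENCODE transcripts, lie in exon 6 of each gene, at chr5:120481561-120481650 for Sds and chr5:120459786-120459875 for Sdsl. They are shown in the direction of transcription, with the bases at which they differ in capitals.
Sds: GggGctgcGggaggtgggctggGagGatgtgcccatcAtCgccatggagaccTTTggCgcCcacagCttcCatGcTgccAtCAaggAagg
Sdsl: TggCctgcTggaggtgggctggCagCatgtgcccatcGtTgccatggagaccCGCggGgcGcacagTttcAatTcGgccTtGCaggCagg
Within this stretch 70 of 90 bases, or 77.8%, were identical. Over the whole transcripts no run of 25 bases was shared, and likewise none between Got1 and Got2 or between Gpt and Gpt2. Sds overlaps Plbd2 by 40 bases, the Tat locus overlaps the pseudogene Gm45795 by 561 bases and Gls2 overlaps Spryd4 by 97 bases, and no source used here states that reads were counted by strand.

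Upstream sequence from RefSeq (GRCm38.p6) was at hand for Tat, Hpd, Tdo2, Hal and Got1. The 250 bases before the transcription start are shown for Hpd and Tdo2, which differed in opposite directions between HFD+LYC and HFD livers in the RNC libraries. Capitals mark matches to CCAAT or TATAAA on either strand, motifs added to the search after the sequences had been read. The Hpd stretch is the minus strand of chr5:123182724-123182973 and the Tdo2 stretch the minus strand of chr3:81975729-81975978.
Hpd: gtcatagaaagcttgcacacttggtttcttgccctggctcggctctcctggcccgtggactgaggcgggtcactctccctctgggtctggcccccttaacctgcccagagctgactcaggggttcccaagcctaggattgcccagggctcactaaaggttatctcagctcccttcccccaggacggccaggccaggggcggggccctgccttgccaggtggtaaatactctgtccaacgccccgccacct
Tdo2: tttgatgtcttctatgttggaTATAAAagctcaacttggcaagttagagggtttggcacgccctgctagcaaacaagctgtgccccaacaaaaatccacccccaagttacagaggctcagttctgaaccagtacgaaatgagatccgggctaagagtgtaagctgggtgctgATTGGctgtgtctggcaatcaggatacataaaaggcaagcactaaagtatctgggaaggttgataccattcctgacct
Tdo2 holds 1 CCAAT match, 78 bases before the start, and 1 TATAAA match, 229 bases before it, and Hpd holds neither. CCAAT was present in 4 of the 5 windows and in 33.8% of all 32851 promoter windows of the same length, and TATAAA in 2 of the 5 and in 12.4% of all. Also, 4 further motifs were searched on both strands: TGACG (the core of a cAMP response element), AGAACA (the core of a glucocorticoid receptor element), CACGTG (an E-box) and TGTTTAC (a site of FOXO and FOXA factors). They occur in 17.8%, 16.1%, 6.02% and 3.17% of all windows, in that order, and in none of the 5. This says only that these letters are not in these windows.

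Read totals were 5806647 to 11613078 in the mRNA libraries and 4533729 to 12742436 in the RNC libraries. The 3 HFD+LYC RNC libraries stood apart from the rest: they detected 8940 to 10037 genes, against 13324 to 14450 in the other RNC libraries, and only 70 to 112 of their genes had exactly 1 read, against 614 to 861. Their 10 most abundant genes took 31.92% to 47.35% of the reads, against 25.65% to 34.16% in the other RNC libraries. By this measure replicate 2, at 31.92%, did not stand apart. All results for HFD+LYC RNC rest on these libraries and cannot be given without them. Of the mRNA libraries, HFD+LYC replicate 2 stood apart, with 189 genes at 1 read, against 652 to 798 in the others. Levels are given as CPM (a gene's reads relative to its library's total) with TMM factors, computed separately for mRNA and RNC. Tests are edgeR quasi-likelihood tests with Benjamini-Hochberg adjusted p-values over all genes, and a gene is called at an adjusted p under 0.05.

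All 7 hepatocyte marker genes found in the files were detected in every diet. Their summed mRNA level was 20960 to 82310 CPM in HFD+LYC, 49850 to 115100 CPM in HFD and 35320 to 122000 CPM in control livers, and 0 of 7 were called between HFD+LYC and HFD. The 10 Kupffer cell markers summed to 195.9 to 360.1, 304.7 to 620 and 218.3 to 386.6 CPM in HFD+LYC, HFD and control mRNA. All 10 had a log2 fold change below 0 in HFD+LYC against HFD, and 1 was called (Vsig4). Of 6 bile duct markers, summing to 31.69 to 50.22, 137.1 to 178.5 and 141.5 to 166.8 CPM in the same order, 5 were tested and 1 was lower in HFD+LYC than in HFD (Spp1). The 8 sinusoidal endothelial markers summed to 412.4 to 598.3, 281.9 to 325 and 223.9 to 307.5 CPM in the same order, with 1 called higher (Stab1); 4 of the 8 had a log2 fold change above 0 against HFD and 4 below, and in RNC 6 were below 0. In RNC, 3 of the 7 hepatocyte markers were higher in HFD+LYC than in HFD, and the 7 summed to 109800 to 431200, 67130 to 99360 and 89210 to 111500 CPM. Skeletal muscle markers summed to at most 2.211 CPM in any mRNA library. Between HFD+LYC and HFD, 1.99% of all genes were called higher and 0.916% lower in mRNA, and 9.34% and 17.4% in RNC. A further difference ran through the groups: 10 clock genes that peak toward evening in mouse liver summed to 1432 to 2082 CPM in HFD+LYC, 312 to 661.7 CPM in HFD and 162.4 to 312.8 CPM in control mRNA. Of these, 6 were higher in HFD+LYC than in HFD. In RNC they summed to 461.7 to 610.3, 114.4 to 155.6 and 62.68 to 75.2 CPM. No label states the hour of sampling. The part of these differences in the results below was not tested.

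**Figure D1:**
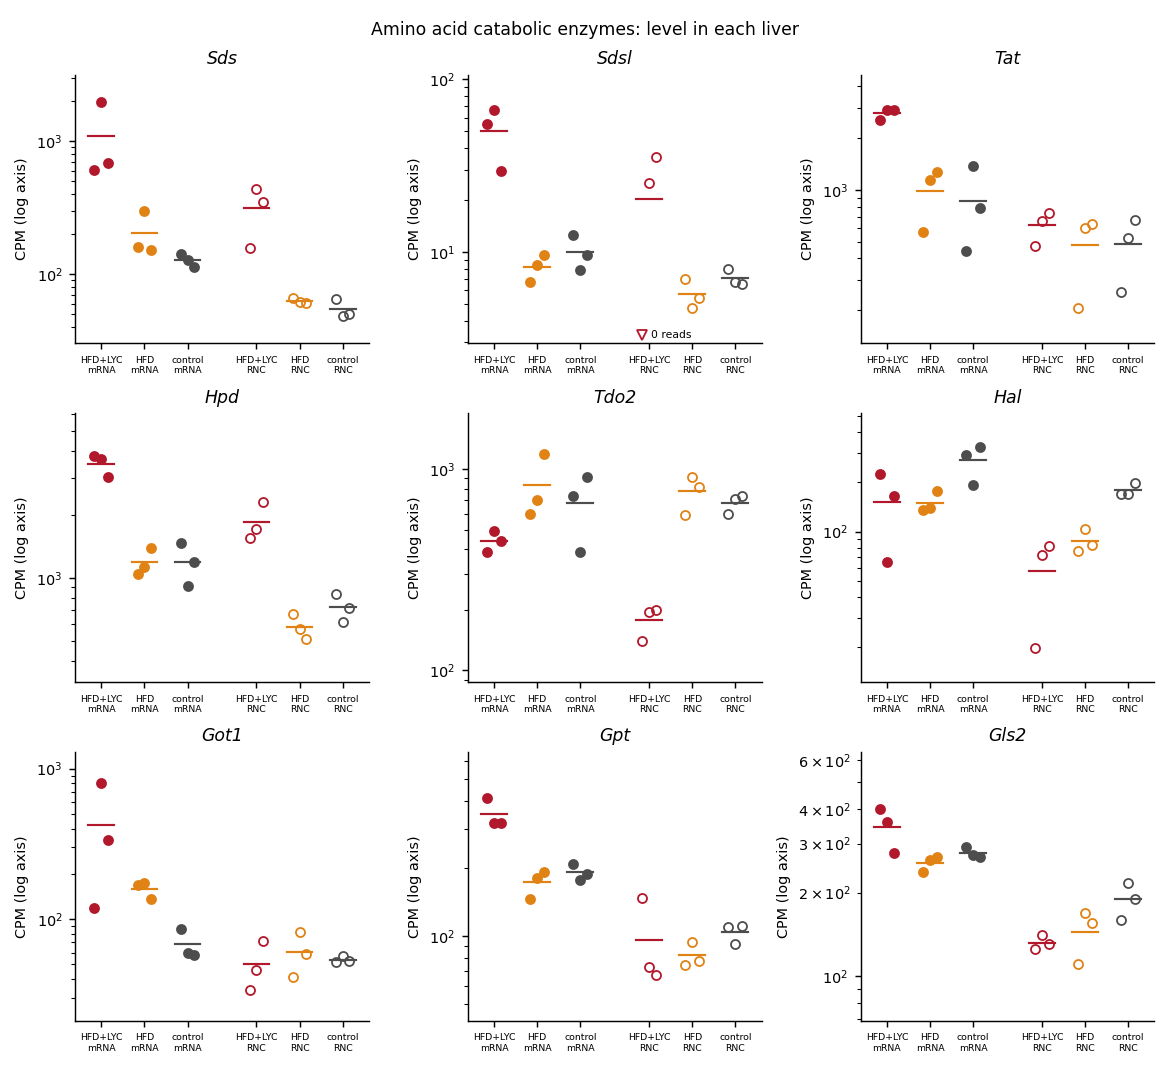
Level of each enzyme in CPM (log axis) in each of 3 livers per diet, for mRNA (filled points) and RNC (open points), with bars at the group means. Sds, Sdsl, Tat, Hpd and Gpt mRNA in HFD+LYC livers lies above every HFD and control liver, and Tdo2 RNC in HFD+LYC livers lies below every other RNC library. The triangle marks the HFD+LYC RNC library with 0 Sdsl reads.

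In mRNA, HFD+LYC against HFD compares the high-fat diet with and without lycopene. The serine and threonine dehydratases Sds and Sdsl were higher with lycopene, and no member was called lower. Thus 2 of the 9 were called, against 2.91% of the 12664 genes tested (1.99% higher and 0.916% lower). With the replicate number as a block, 5 were called, all higher (Sds, Sdsl, Tat, Hpd and Gpt), against 11.5% of all genes (6.73% higher and 4.78% lower). The groups did not overlap for 7 members, against 31.9% of all genes. Of these, 6 were higher, against 16.7% of all genes, and 1 was lower, against 15.2%. These counts are on the TMM scale, and by library total the groups of Tdo2 and Gls2 overlapped. The median log2 fold change over the 9 was 1.39, against -0.04 over all genes.

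Sdsl stood at 55.28, 66.67 and 29.38 CPM in HFD+LYC livers, against 6.716, 8.424 and 9.581 CPM in HFD livers and 12.48, 7.855 and 9.648 CPM in control livers. Every HFD+LYC liver was above every other liver, and the other diets overlapped. The log2 fold change was 2.61 ± 0.35 (SE) against HFD (edgeR adjusted p = 0.00621) and 2.33 ± 0.34 against control (adjusted p = 0.00523). Both calls held when any 1 liver was left out.

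Sds stood at 605.2, 1979 and 688.6 CPM in HFD+LYC livers, against 160.9, 296.6 and 150.5 CPM in HFD livers and 142.4, 126.6 and 112.4 CPM in control livers. On this scale the 3 diets did not overlap at all, and replicate 2 of HFD+LYC was far above the other HFD+LYC livers. By library total HFD and control overlapped, with 131.2 CPM in HFD replicate 3 and 141.4 CPM in control replicate 2. The log2 fold change was 2.43 ± 0.51 against HFD (edgeR adjusted p = 0.0326) and 3.10 ± 0.53 against control (adjusted p = 0.00966). Against HFD the call was lost without control replicate 3, without any 1 HFD replicate and without HFD+LYC replicate 1 or 2, with adjusted p of 0.0595 to 0.109 in these 6 fits. Without HFD+LYC replicate 2 the log2 fold change was 1.68 (adjusted p = 0.0799), and in the other 5 of these fits it was 2.25 to 2.80. The call was also lost with library totals (2.58, adjusted p = 0.0632) and in a fit of these diets alone (2.43, adjusted p = 0.0562). Against control the call was lost without control replicate 3 (3.01, adjusted p = 0.0694).

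The tyrosine enzymes were both highest in HFD+LYC. Tat mRNA was 2550, 2898 and 2924 CPM in HFD+LYC livers, against 566.9, 1134 and 1268 CPM in HFD livers and 441.4, 1369 and 782.5 CPM in control livers. The HFD+LYC livers were close together and above all others, while HFD and control livers spread widely and overlapped. The log2 fold changes of 1.50 ± 0.49 against HFD and 1.69 ± 0.49 against control were not called (edgeR adjusted p = 0.106 and 0.0688), and without control replicate 2 the change against control was called (2.19, adjusted p = 0.0349). With the replicate block Tat was called against HFD (edgeR adjusted p = 0.0303) and against control (1.84, adjusted p = 0.0164), and DESeq2 called both (adjusted p = 0.0112 and 0.00216).

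Hpd, the enzyme after Tat, was at 3787, 3673 and 3020 CPM in HFD+LYC livers, against 1045, 1131 and 1380 CPM in HFD livers and 1469, 912.5 and 1190 CPM in control livers. No HFD+LYC liver fell within the range of another diet. Against HFD the log2 fold change of 1.56 ± 0.39 missed the threshold (edgeR adjusted p = 0.0542); it was called without control replicate 2 (1.56, adjusted p = 0.0426), with the replicate block (1.56, adjusted p = 0.0264) and by DESeq2 (adjusted p = 1.88e-06). Against control the change of 1.55 ± 0.39 was called (adjusted p = 0.0405). That call was lost in 8 of the 9 fits that left out 1 liver, all but the fit without HFD replicate 3, with log2 fold changes of 1.39 to 1.73 over the 9 fits and adjusted p up to 0.179, and it was lost with no filter on low counts (0.0692) and in a fit of these diets alone (0.0707).

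On the TMM scale Tdo2 was the only member with lower mRNA in every HFD+LYC liver than in any HFD liver. By library total HFD+LYC replicate 2, at 626.2 CPM, lay above HFD replicate 1, at 594.5 CPM. In the authors' RPKM they were likewise at 353.1 and 334.2. With TMM factors Tdo2 stood at 388.7, 493.7 and 438.7 CPM in HFD+LYC livers, against 601.3, 707.5 and 1185 CPM in HFD livers and 735.7, 386.7 and 915.8 CPM in control livers. The control livers spanned the HFD+LYC range. Neither the change against HFD (log2 fold change -0.92 ± 0.42, edgeR adjusted p = 0.206) nor that against control (-0.63 ± 0.42, adjusted p = 0.384) was called.

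Got1 varied widely among the HFD+LYC livers, at 117.9, 803.3 and 337.2 CPM, against 168.1, 175 and 136 CPM in HFD livers and 85.88, 59.53 and 58.14 CPM in control livers. HFD+LYC replicate 1 lay below all HFD livers and replicate 2 was the highest of all. The log2 fold change against control was 2.63 ± 0.57 (edgeR adjusted p = 0.0250). The call was lost without control replicate 1 (2.83, adjusted p = 0.0643), without control replicate 3 (2.52, adjusted p = 0.127) and without HFD+LYC replicate 2 (1.75, adjusted p = 0.0700). Against HFD it was 1.39 ± 0.55 (adjusted p = 0.153), and 0.51 at the lowest when 1 liver was left out.

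Gpt was at 411.3, 317.6 and 318.7 CPM in HFD+LYC livers, against 145.9, 181 and 193 CPM in HFD livers and 208.7, 178.2 and 189.7 CPM in control livers. The HFD+LYC livers were again apart from both other diets, but neither log2 fold change, 1.01 ± 0.30 against HFD and 0.86 ± 0.30 against control, was called (edgeR adjusted p = 0.0870 and 0.117). DESeq2 called Gpt against HFD (adjusted p = 0.00113) and against control (adjusted p = 0.00551), and the replicate block against HFD (1.00, edgeR adjusted p = 0.0497) but not against control (adjusted p = 0.0801). Gls2 ranged from 277.9 to 400.6 CPM in HFD+LYC livers, from 236.8 to 269.2 CPM in HFD livers and from 269.5 to 292.6 CPM in control livers. Hal ranged from 65.45 to 221.8 CPM, from 134.2 to 176.1 CPM and from 191.5 to 324.7 CPM in the same order. Neither was called in any mRNA comparison, and their log2 fold changes between HFD+LYC and HFD were 0.43 ± 0.30 and 0.01 ± 0.43.

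Against control, 4 of the 9 members were called in HFD+LYC mRNA, all higher (Sds, Sdsl, Hpd and Got1), against 5.54% of all genes (3.31% higher and 2.23% lower). Groups did not overlap for 6 members, all higher, against 28% of all genes (14.3% higher and 13.7% lower). This comparison shares its HFD+LYC livers with the previous one. The set of 4 was not stable to the choice of livers: between 1 and 4 members were called when 1 liver was left out.

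HFD against control, the effect of the high-fat diet alone, gave no called member in mRNA, against 0.0158% of all genes, or 2 genes. By unadjusted p, 1 member passed 0.05, against 2.83% of all genes: Got1, whose HFD livers were all above the control livers, with a log2 fold change of 1.24 ± 0.55 (unadjusted p = 0.0447, edgeR adjusted p = 1.00). On the TMM scale groups did not overlap for 4 members, Sds and Got1 higher and Hal and Gls2 lower in HFD. This compares with 7.22% of all genes (3.76% higher and 3.46% lower). For Gls2 the gap was narrow, between 269.2 CPM in the highest HFD liver and 269.5 CPM in the lowest control liver. By library total the groups of Gls2 and Sds overlapped, and those of Got1 and Hal did not. DESeq2 called none of the 9 either, in mRNA or in RNC. In RNC 0 members were called, against 0.00858% of all genes, and 1 had an unadjusted p under 0.05, against 1.84% of all genes. This was Hal, at 76.39, 103.4 and 82.46 CPM in HFD livers and 168.3, 167.8 and 196.6 CPM in control livers. Its log2 fold change in RNC was -1.02 ± 0.43 (edgeR unadjusted p = 0.0408, adjusted p = 1), and in mRNA it was -0.85 ± 0.43. Hal was the 1 member whose HFD and control groups did not overlap in RNC, against 14.2% of all genes (6.97% higher and 7.2% lower).

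**Figure D2:**
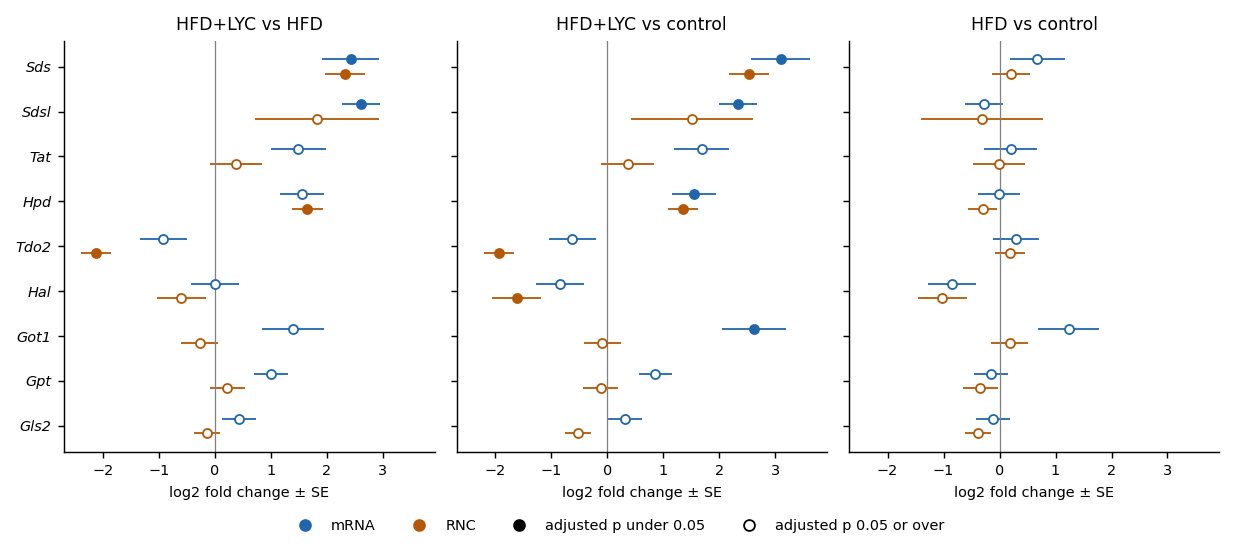
Log2 fold change with its standard error for the 9 enzymes in mRNA (blue) and RNC (brown), for HFD+LYC vs HFD, HFD+LYC vs control and HFD vs control. Filled points have an edgeR adjusted p under 0.05; in RNC, Sds and Hpd lie at 2.33 and 1.66 and Tdo2 at -2.12 for HFD+LYC vs HFD, and no point is filled for HFD vs control.

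In ribosome-bound RNA, HFD+LYC livers had more Sds and Hpd and less Tdo2 than HFD livers. These 3 of the 9 were called, against 26.8% of the 11660 genes tested (9.34% higher and 17.4% lower), so the share of members called was close to that of all genes. Their groups, and no other member's, did not overlap, against 41.3% of all genes (13.3% higher and 28.1% lower). The median log2 fold change over all genes was -0.29 in this comparison, and 0.23 over the members. Tdo2 was at 140.1, 195.8 and 199.9 CPM in HFD+LYC livers, against 593.8, 919 and 815.5 CPM in HFD livers and 597.7, 712.4 and 736.1 CPM in control livers. All HFD+LYC livers were far below the rest, and the other diets overlapped. The log2 fold change was -2.12 ± 0.27 against HFD (edgeR adjusted p = 0.000784) and -1.93 ± 0.27 against control (adjusted p = 0.00117), and both calls held when any 1 liver was left out and with library totals in place of TMM scaling.

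Sds in RNC was at 157.7, 439.3 and 350.3 CPM in HFD+LYC livers, against 66.23, 61.38 and 60.43 CPM in HFD livers and 64.54, 48.4 and 50.36 CPM in control livers. HFD+LYC replicate 1 was the lowest of its group and still above all other livers. The log2 fold change was 2.33 ± 0.36 against HFD (edgeR adjusted p = 0.00212) and 2.54 ± 0.36 against control (adjusted p = 0.00138). The scaling bears on this library: its TMM factor was 0.4277, and by library total, without TMM, its Sds level was 67.43 CPM, below the 69.3 to 82.24 CPM of HFD livers. In the authors' RPKM it was likewise 53.16, against 55.79 to 69.8 in HFD livers. The Sds call held without this library and with library totals.

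Hpd in RNC was at 1544, 1698 and 2288 CPM in HFD+LYC livers, against 675.5, 570.2 and 510.5 CPM in HFD livers and 836.9, 614.9 and 715.3 CPM in control livers. On this scale the HFD+LYC livers were apart from all others, whereas by library total HFD+LYC replicate 1, at 660.1 CPM, lay within the 585.4 to 768.4 CPM of HFD livers. The log2 fold change was 1.66 ± 0.27 against HFD (edgeR adjusted p = 0.00283) and 1.35 ± 0.27 against control (adjusted p = 0.00572). With library totals both calls were lost (1.10, edgeR adjusted p = 0.0796, and 0.89, adjusted p = 0.152). On that scale the median of all genes lay at -0.87 against HFD and -0.74 against control, compared with -0.29 and -0.28 under TMM.

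Sdsl had 0 of 11300925 reads in HFD+LYC RNC replicate 1, which allows up to 3 reads, or 0.2655 CPM by library total, for counting error alone. The other HFD+LYC livers were at 24.94 and 35.62 CPM, against 6.988, 4.746 and 5.406 CPM in HFD livers and 8.023, 6.676 and 6.519 CPM in control livers. The same liver had an mRNA level of 55.28 CPM, so the groups overlapped in RNC and not in mRNA. Sdsl was not called in RNC (log2 fold change 1.83 ± 1.11 against HFD, edgeR adjusted p = 0.272), and without that library it was called (2.43, adjusted p = 0.00102 against HFD; 2.11, adjusted p = 0.00170 against control).

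Hal in RNC was at 19.66, 71.93 and 81.68 CPM in HFD+LYC livers, below the control livers and overlapping the HFD livers. It was called lower against control (log2 fold change -1.62 ± 0.44, edgeR adjusted p = 0.0225). That call was lost without any 1 control library (adjusted p = 0.0529 to 0.0651), with library totals (0.0669) and in a fit of these diets alone (0.0756). The RNC levels of Tat, Got1, Gpt and Gls2 were called in neither comparison. For Tat, whose mRNA was 2550 CPM or more in every HFD+LYC liver, RNC stood at 470, 662.3 and 735.8 CPM in HFD+LYC livers and 205.8, 596.3 and 635.7 CPM in HFD livers. Against control, 4 members were called in RNC (Sds and Hpd higher, Tdo2 and Hal lower), against 26.3% of all genes (9.23% higher and 17.1% lower). Groups did not overlap for these 4 and for Gls2, which was lower, against 44.7% of all genes (14.1% higher and 30.6% lower).

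**Figure D3:**
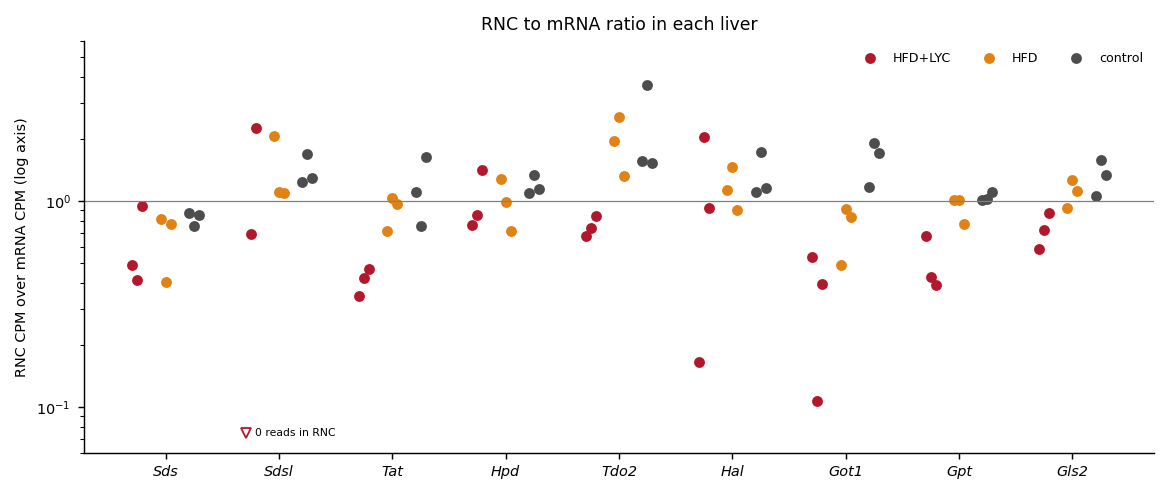
RNC level over mRNA level of the same liver (log axis; CPM scaled over all 18 libraries) for each enzyme, by diet. Every HFD+LYC liver lies below every HFD liver for Tat, Tdo2, Gpt and Gls2, and the triangle marks the HFD+LYC liver with 0 Sdsl reads in RNC.

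The ratio of RNC to mRNA in the same liver compares how much of a gene's RNA was ribosome-bound with the same for other genes; it is relative, since each library is scaled to the rest. The Tdo2 ratio was 0.6749, 0.7373 and 0.8494 in HFD+LYC livers, against 1.954, 2.545 and 1.329 in HFD livers and 1.568, 3.652 and 1.535 in control livers. On this scale the HFD+LYC livers were all below 1 and all others above it, whereas by library total replicate 3 of HFD and of control were below 1 too. In the fit over 18 libraries the change in the Tdo2 ratio in HFD+LYC against HFD livers was -1.27 ± 0.50 on the log2 scale and was not called (edgeR adjusted p = 0.0962). DESeq2, which likewise did not pair the libraries of a liver, called it (-1.17, adjusted p = 0.0404). The edgeR fit with a block for each liver did not call it.

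The Tat ratio was 0.345, 0.4248 and 0.4691 in HFD+LYC livers, against 0.7184, 1.03 and 0.968 in HFD livers and 1.111, 0.7595 and 1.638 in control livers. The HFD+LYC livers lay below all others, with a log2 change of -1.18 ± 0.68 against HFD (edgeR adjusted p = 0.269). The Got1 ratio was 0.5356, 0.107 and 0.3961 in HFD+LYC livers, against 0.4878, 0.9196 and 0.8376 in HFD livers and 1.167, 1.905 and 1.718 in control livers. Its log2 change against HFD was -1.71 ± 0.67 (adjusted p = 0.0922), and without HFD+LYC replicate 1 it was called (-1.94, adjusted p = 0.0222), as was Gpt (-1.18, adjusted p = 0.0423).

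No member was called for the ratio between HFD+LYC and HFD, against 16.4% of the 12872 genes tested, and 2 (Got1 and Tdo2) had an unadjusted p under 0.05, against 29.2% of all genes. Groups did not overlap for 4 members, all lower in HFD+LYC, against 32.6% of all genes (8.03% higher and 24.6% lower). The median over the members was -0.84 and over all genes -0.41. For HFD against control 0 of the 9 were called, as were 0 of all 12872 genes by edgeR, of which 20 (0.155%) had an unadjusted p under 0.05 and DESeq2 called 1. All 9 members lay below 0 there, between -1.04 for Got1 and -0.03 for Sdsl, while 52.1% of all genes lay above 0. Without 1 liver the shared sign was lost: Tdo2 reached 0.23, Tat 0.15, Sdsl 0.14 and Hal 0.03. Got1 and Gpt had lower ratios in every HFD liver than in any control liver, and groups did not overlap for 4.99% of all genes (2.86% higher and 2.13% lower). Within control livers, RNC against mRNA gave no called member, against 2.13% of all genes, or 274. With a block for each liver, which pairs its libraries, the count over all genes was 2. The RNC and mRNA groups of control livers did not overlap for 4 members, all higher in RNC (Sdsl, Tdo2, Got1 and Gls2). Groups did not overlap for 53.5% of all genes (25.2% higher and 28.3% lower). Taken liver by liver, RNC also lay above mRNA in all control livers for Hpd, Hal and Gpt. This direction turned with the scaling. By library total, Sdsl, Gls2, Hpd, Hal and Gpt RNC lay below mRNA of the same liver in all control livers. Tdo2 and Got1 went both ways. The members' median was then -0.35 instead of 0.35 (all genes, -0.80 instead of -0.07). In the main fit the Tdo2 ratio was the farthest from 0 of the members, at 0.95 ± 0.36 (edgeR unadjusted p = 0.0155, adjusted p = 0.109). An unadjusted p under 0.05 was found for 27.3% of all genes. DESeq2, without pairing the libraries of a liver, called Tdo2 (0.83, adjusted p = 0.0468), and the edgeR fit with a block for each liver did not.

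Corrected for transcript length, the order of the enzymes changed with diet. In RPKM computed from the TMM-scaled levels, Hpd led mRNA in every diet, with 2216 to 2779 in HFD+LYC, 766.7 to 1013 in HFD and 669.5 to 1077 in control livers. Values after ± are SDs of 3 livers. In HFD+LYC livers Tat (1174 ± 87.8) and Sds (937.2 ± 662) came next, with overlapping ranges, and then Tdo2 (269.7 ± 32.2). In HFD and control livers Tdo2 came second (509 ± 190 in HFD, 416 ± 165 in control) and overlapped Tat (416.4 ± 157 and 363.7 ± 198). Sdsl was the lowest of the 9 in all 3 diets, at 41.72 ± 15.8, 6.816 ± 1.19 and 8.265 ± 1.93 RPKM in HFD+LYC, HFD and control mRNA; in HFD+LYC its range overlapped that of Hal. In RNC, Hpd led in HFD+LYC and control livers, while in HFD livers Tdo2 (475.3 ± 102 RPKM) and Hpd (429.5 ± 61.3 RPKM) overlapped at the top.

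As a share of the summed RPKM of the 9 enzymes, Tdo2 made up 4.88% ± 0.58 of mRNA in HFD+LYC livers, against 21.6% ± 4.1 in HFD and 19.2% ± 6.4 in control livers. In RNC its share was 5.07% ± 0.38 in HFD+LYC, against 35.4% ± 3.2 in HFD and 29.2% ± 2.3 in control livers. Hpd made up 62.6% ± 5.0 of the RNC sum in HFD+LYC livers, against 33.0% ± 9.0 in HFD and 37.2% ± 6.8 in control livers. A share within the 9 does not depend on the scaling between libraries, but it also falls when other members rise. In mRNA the 9 summed to 8199 to 10660 CPM in HFD+LYC, 3066 to 4768 CPM in HFD and 3505 to 3852 CPM in control livers. Tdo2 mRNA itself was 1.89-fold lower in HFD+LYC than in HFD livers and was not called. Per length, Sds mRNA was 11.37, 30.83 and 24.35 times Sdsl mRNA in HFD+LYC livers, against 24.88, 36.56 and 16.32 times in HFD livers and 11.85, 16.75 and 12.09 times in control livers, and the HFD+LYC livers overlapped both other diets in this ratio.

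Among the 9 livers, the profiles of the called members were compared with those of 8308 genes of at least 10 mean CPM, by the mean absolute difference of centred log2 CPM. This is a description of 9 mRNA libraries with a shared diet structure. The closest to Sds were Por (0.29), Slfn5 (0.29) and Lpin2 (0.34), and the closest to Sdsl were Casc4 (0.18), Ppp3ca (0.20) and Ces1b (0.26). Hpd was closest to Smyd2 (0.17), Ahcy (0.18) and Gm4737 (0.18), and Got1 to Acaa1b (0.36), Gpat4 (0.37) and Clstn3 (0.37). Between members, Sds was number 8 of the 8308 genes in closeness to Got1, at 0.47. The neighbours Sds and Sdsl were 0.54 apart, and Sdsl was number 66 of the 8308 in closeness to Sds. The median distance of these genes from Sds was 1.19.

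**Figure D4:**
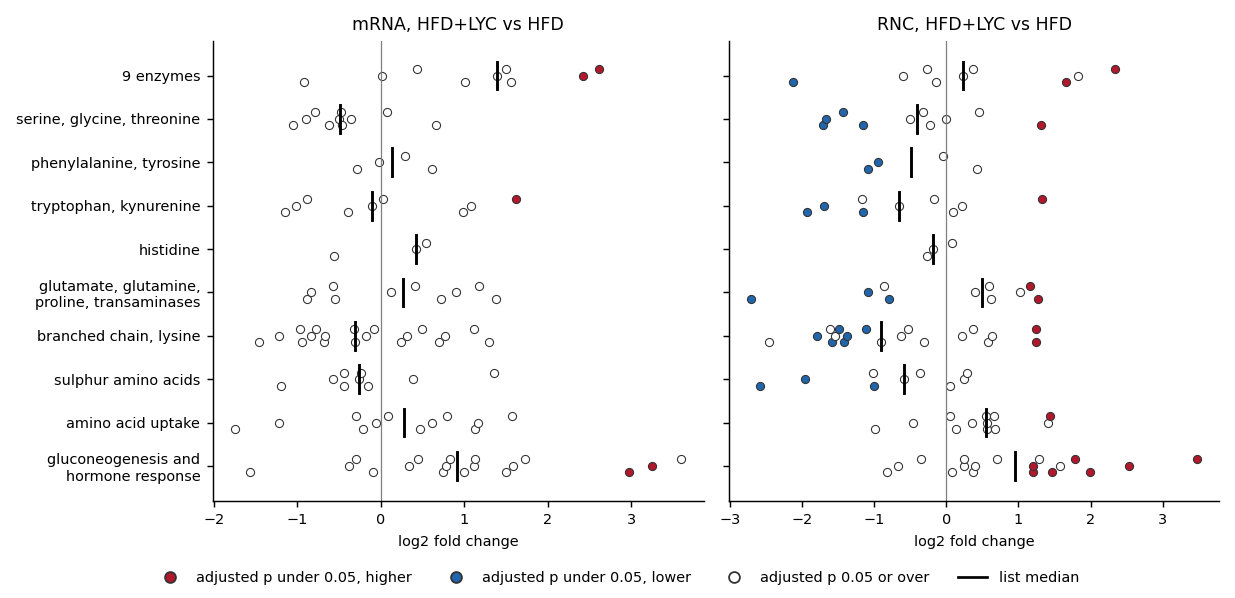
Log2 fold change of each tested gene, HFD+LYC vs HFD, in mRNA (left) and RNC (right), for the 9 enzymes, 7 lists of other amino acid breakdown genes, amino acid carriers, and gluconeogenic and hormone-response genes. Filled points have an edgeR adjusted p under 0.05 and bars mark list medians: in mRNA the enzymes' median is 1.39, and 1 other breakdown gene is filled.

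Most other genes of amino acid breakdown did not follow Sds and Sdsl in mRNA, a contrast between lists chosen with earlier results of these data known. Over the 64 tested, the median log2 fold change was -0.27, and 63 missed the threshold. None was lower in HFD+LYC than in HFD (0.916% of all genes), and 1 was higher (1.99% of all genes). The 1 was Afmid, the kynurenine formamidase that acts directly after Tdo2, at 292.1 ± 58.9 CPM in HFD+LYC and 95.03 ± 10.8 CPM in HFD livers (SD, n = 3 each; 3.07-fold, edgeR adjusted p = 0.0235). No gene of the 64 was called without control replicate 3, without any 1 HFD replicate or without HFD+LYC replicate 1 or 2. The count over all genes was 161 without control replicate 3 and 66 to 104 in the other fits named. Without control replicate 2, 3 of the 64 were called, all higher, against 392 of 12928 genes called higher. DESeq2 called 7 higher and 4 lower, against 871 and 620 of all 12664 genes. The replicate block called 4 and 4, against 6.73% and 4.78% of all genes. Compared with control, 2 were higher, against 3.31% of all genes: Gpt2, the mitochondrial alanine aminotransferase (2.51-fold, edgeR adjusted p = 0.0413), and Prodh, the proline dehydrogenase (2.64-fold, adjusted p = 0.0464). None was called higher without control replicate 1 or 3, without HFD replicate 2 or without any 1 HFD+LYC replicate. Over all genes, 132 and 59 were called higher without control replicate 1 and 3, and 286 without HFD replicate 2. Without HFD+LYC replicate 1 and 2 these were 180 and 181. DESeq2 called 8 higher and 6 lower, against 927 and 701 of all 12664 genes. The replicate block called 5 and 3, against 812 and 613 of all genes.

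In RNC, 6 of the 64 were higher in HFD+LYC than in HFD, 21 were lower and 37 were not called, against 9.34% higher and 17.4% lower over all genes, so the share higher was at that of all genes; the median was -0.51, against -0.29 over all genes. With library totals 0 were higher and 18 lower, and the list median was -1.02, against -0.87 over all genes. With these diets alone 2 were higher and 11 lower, against 685 and 1105 of 11096 genes. Without HFD replicate 2 there were 1 higher and 13 lower, and without HFD replicate 3 there were 0 and 14. Over all genes, the 9 fits that left out 1 liver called 2107 to 4633 in either direction. In the kynurenine pathway after Tdo2, Kynu was at 34.82 ± 3.00 CPM in HFD+LYC and 133 ± 18.6 CPM in HFD livers (3.82-fold lower, edgeR adjusted p = 0.000289). Aadat and Kmo of the same pathway were 3.25-fold and 2.22-fold lower (adjusted p = 0.00784 and 0.00831), while Afmid was 2.52-fold higher (adjusted p = 0.0111).

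Also in RNC, 3 of 9 genes of sulphur amino acid breakdown were lower and 6 were not called. Of 10 genes of glutamine, glutamate, proline and transamination 2 were higher and 3 lower. Over all genes 9.34% were higher and 17.4% lower. In mRNA 0 genes of either list were called between HFD+LYC and HFD, against 2.91% of all genes. The genes named next are among those called in RNC. Oat, the ornithine aminotransferase, was at 127.4 ± 32.4 CPM in HFD+LYC and 830.2 ± 136 CPM in HFD livers (6.52-fold lower, edgeR adjusted p = 0.000369). Cth, the cystathionine gamma-lyase, was 5.98-fold lower (adjusted p = 0.000773), and Bhmt, the betaine-homocysteine methyltransferase, 3.88-fold lower (adjusted p = 0.00192). Around serine and glycine, the glycine cleavage genes Gcsh and Gldc were 3.17-fold and 3.28-fold lower (adjusted p = 0.00279 and 0.00680), and Sardh, the sarcosine dehydrogenase, was 2.49-fold higher (adjusted p = 0.0107). Prodh and Prodh2 of proline breakdown were 2.23-fold and 2.42-fold higher (adjusted p = 0.0165 and 0.0308). Of the branched-chain and lysine genes, 2 of 19 were higher and 6 lower, against 9.34% and 17.4% of all genes, with Pcca, a propionyl-CoA carboxylase subunit, 3.47-fold lower (adjusted p = 0.00750).

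Of 12 amino acid carriers, 0 were called in mRNA between HFD+LYC and HFD, against 2.91% of all genes. In RNC 1 was higher, a share close to the 9.34% of all genes. It was Slc38a3, a glutamine carrier of the hepatocyte membrane (2.72-fold, edgeR adjusted p = 0.00649). Of 18 genes of gluconeogenesis and hormone response, 2 were higher in mRNA, against 1.99% of all genes, and 16 were not called. Fkbp5, a glucocorticoid-induced cochaperone, was at 144.6 ± 31.2 CPM in HFD+LYC and 15.18 ± 2.24 CPM in HFD livers (9.52-fold, adjusted p = 0.00146). Cebpb, a transcription factor of hepatic metabolism, was 7.85-fold higher (adjusted p = 0.00347). Without control replicate 2 the mRNA count was 5, against 392 of 12928 genes called higher. The replicate block called 9 higher, against 6.73% of all genes. DESeq2 called 9 higher and 1 lower, against 871 and 620 of 12664 genes. In RNC 7 of the 18 were higher, against 9.34% of all genes. Among them were Foxo1 (3.96-fold, edgeR adjusted p = 0.00173) and Fkbp5 (5.81-fold, adjusted p = 0.00222). With library totals 2 of the 18 were higher, and their median was 0.31, against -0.87 over all genes. Without HFD replicate 3 the RNC count was 4, where leaving out 1 liver gave 2107 to 4633 called genes over all.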

How the data were processed

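Per the labels' protocols, poly(A) libraries were made from total liver RNA and from RNC RNA pelleted through sucrose after lysis with cycloheximide. The submitters' processing notes name bcl2fastq and mm10. The aligner was not given in the sources used here. Per the file headers, the authors deposited whole read counts per gene and RPKM values per longest transcript; the deposited RPKM entered no test.

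Counts were fitted with edgeR 4.0.16 (R 4.3.3; filterByExpr minimum count 10, total 15; TMM; robust quasi-likelihood), over 9 mRNA libraries, 9 RNC libraries and all 18 for the ratio. Alternatives were DESeq2 1.42.0, limma-voom (limma 3.58.1), other scaling and filters, a replicate block and leaving out livers. Animal codes in the deposited names pair the mRNA and RNC libraries of a liver. Within a diet, the libraries of a liver deviated together (r over 0.1) in 3 of 9 livers (-0.036 to 0.510 over the 9). This compares with 3 of 18 pairs from different livers. In the HFD+LYC livers r was -0.006 to 0.059. Of the 18 libraries, 10 correlated best with the other library of their own liver. No label pairs livers across diets. In mRNA, same-numbered livers deviated together (r over 0.1) in all 3 pairs of HFD+LYC with HFD (0.134 to 0.464). They did so in 7 of 9 pairs in all, against 4 of 18 with different numbers. In RNC 2 of 9 did. However, r in mRNA ran from -0.416 to 0.464 in same-numbered pairs and from -0.668 to 0.603 in the others. The highest value was that of control replicate 1 with HFD replicate 3, so the numbers are not shown to pair livers. The fits without the block are the main ones, and results the block changes are given beside them. In the main mRNA and RNC fits, the p-values rest on the spread between the 3 livers of a diet, pooled over all diets and shared over genes. The main ratio fit treats both libraries of a liver as independent, so its p-values do not measure the spread between livers alone. The members and gene lists were chosen with earlier results of these data known. All 9 members are named, and genes of other lists were taken from those called, up to 6 per list by smallest p. Some results on single genes outside the 9 enzymes are not reported here.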

Additional observations from a re-analysis of the deposited data

How the results depend on the processing

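Over 1269 values (members under each alternative), 1220 kept their side of the threshold, 20 gained a call and 29 lost one; no called value changed sign, and 60 changed sign where neither value was called. DESeq2 and the replicate block each called 5 members (Sds, Sdsl, Tat, Hpd and Gpt) in mRNA for HFD+LYC vs HFD, against 2, and the fit of these diets alone called 1 (Sdsl). Library totals, an alternative chosen after seeing the data, called 2 (Sds and Tdo2) in RNC for HFD+LYC vs control, against 4, and 2 (Tdo2 and Gpt) for the ratio of HFD+LYC vs HFD, where DESeq2 called 1 (Tdo2); DESeq2 also called 1 (Tdo2) for RNC vs mRNA in control. The cause was not tested.

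Leaving out 1 liver gave 1 to 3 members for mRNA HFD+LYC vs HFD, 1 to 4 for mRNA HFD+LYC vs control, 3 to 4 for RNC HFD+LYC vs HFD, 3 to 5 for RNC HFD+LYC vs control, and 0 to 2 for the ratio of HFD+LYC vs HFD; the other comparisons stayed at 0.

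Counts over all genes moved more. For mRNA HFD vs control (2 genes), DESeq2 called 41, no filter 6, and limma-voom, library totals and these diets alone 1 each; leaving out livers gave 1 to 3. For mRNA HFD+LYC vs HFD (368), DESeq2 called 1491, the block 1457 and library totals 135 (66 to 606 without 1 liver), and vs control (701) they called 1628, 1425 and 384 (91 to 952). For RNC HFD vs control (1), DESeq2 called 33, limma-voom 0 and these diets alone 32 (0 to 2). For RNC HFD+LYC, the compared diets alone called 1790 vs HFD (3120) and 2032 vs control (3072), and leaving out livers gave 2107 to 4633 and 2103 to 4605. For the ratio, DESeq2 called 1 for HFD vs control (0); HFD+LYC vs HFD (2116) ranged from 1289 to 2931 without 1 liver. RNC vs mRNA in control (274) gave 525 with DESeq2 size factors, 2181 with DESeq2, 532 with limma-voom, 2 with the liver as replicate block and 2024 with library totals (0 to 1527 without 1 liver).

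In mRNA for HFD+LYC vs control the replicate block called 5 members, adding Tat to the 4; 4 of 9 mRNA and 3 of 9 RNC libraries correlated best with their own number. Sdsl had the fewest reads of the members, 0 to 266 in RNC and 57 to 491 in mRNA, so counting error is largest for it. The library with 0 had 11300925 reads and was not among the shallowest by read total. However, its TMM factor of 0.4277 and its 8940 detected genes were the lowest of the RNC libraries.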
